A study of Homo sapiens with 4 samples.

Results

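The 37 genes of the human mitochondrial genome were examined in cells that carry the label NB4, a human line derived from acute promyelocytic leukemia, with and without GNE-987, a chimeric compound that causes protein degradation through a ubiquitin ligase. They are the rows of the expression table, out of 58735 genes, whose identifiers lie on the mitochondrial chromosome in GENCODE release 44: 13 protein-coding genes, 2 ribosomal RNA (rRNA) genes and 22 transfer RNA (tRNA) genes. The rule uses position only and no measured value, but the members were chosen with earlier results of these data known. All 37 genes passed the filter on low values. RNA-seq was done on 2 libraries of untreated control cells and 2 libraries of cells given 25 nM GNE-987 for 24 h. The values are FPKM, that is, fragment counts divided by the gene's length and by a total for the library. No label says that the libraries came from separate cultures, so p-values measure only the spread between these libraries, which may be technical.

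Mitochondrial DNA is a small circle that is transcribed along nearly its whole length on both strands. The long transcripts are cut into rRNAs, mRNAs and tRNAs, mostly at the tRNAs that lie between the other genes, and most of the mRNAs then receive a short poly(A) tail. The mRNAs encode subunits of the respiratory chain and of ATP synthase, and the rRNAs and tRNAs serve the ribosomes inside the organelle that translate them. Proteins that are encoded in the nucleus and imported transcribe the genome and cut, modify, protect and degrade its RNAs.

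The genes lie so close that many share a boundary. On the hg38 mitochondrial chromosome of 16569 bases, the members covered 15358 bases, and of 36 pairs of neighbours 20 touched, 5 overlapped, 7 were 1 to 5 bases apart and 4 were farther apart. The overlap of the 2 genes for ATP synthase subunits, MT-ATP8 and MT-ATP6, runs over 46 bases (chrM:8527-8572, plus strand) and is shown because reads in it belong to both genes. The gap of 31 bases between MT-TN and MT-TC (chrM:5730-5760, here in the letters of the plus strand) holds the known start of light-strand replication, and the tRNA genes on its sides had the highest values of all tRNA genes.
MT-ATP8 and MT-ATP6 overlap: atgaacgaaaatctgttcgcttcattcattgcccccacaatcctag
MT-TN to MT-TC gap: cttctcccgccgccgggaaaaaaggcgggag

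Among the tRNA genes, 5 with low rises, grouped after their values were seen, stand between MT-CO3 and MT-ND5. They are shown 5′ to 3′ with the anticodon, where a search of the sequence for the anticodon stem found it, in capitals: MT-TG for glycine (chrM:9991-10058), MT-TR for arginine (chrM:10405-10469), MT-TH for histidine (chrM:12138-12206), MT-TS2 for serine (chrM:12207-12265), in which the search found none, and MT-TL2 for leucine (chrM:12266-12336), all on the plus strand. MT-TD for aspartate (chrM:7518-7585) and MT-TM for methionine (chrM:4402-4469, no anticodon found by the search), also on the plus strand, are shown because they rose beyond the mRNAs.
MT-TG: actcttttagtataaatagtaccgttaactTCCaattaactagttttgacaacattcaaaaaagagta
MT-TR: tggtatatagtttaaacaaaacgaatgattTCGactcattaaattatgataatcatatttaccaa
MT-TH: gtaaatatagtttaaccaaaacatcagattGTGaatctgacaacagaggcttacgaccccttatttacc
MT-TS2: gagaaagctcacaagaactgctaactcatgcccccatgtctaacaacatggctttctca
MT-TL2: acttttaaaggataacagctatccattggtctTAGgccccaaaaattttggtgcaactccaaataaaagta
MT-TD: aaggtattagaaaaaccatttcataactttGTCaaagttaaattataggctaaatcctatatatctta
MT-TM: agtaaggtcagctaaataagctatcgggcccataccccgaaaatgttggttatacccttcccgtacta

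The mRNAs end in different ways, and the last 18 bases of 4 of them are shown with the bases of the stop codon in capitals. MT-ND4 ends in a single T, which the poly(A) tail completes to a stop codon, and 6 of the 13 mRNAs have such an incomplete end. MT-ND5 is among the 7 with a complete stop codon. MT-CO1 and MT-ND6 end in AGA and AGG, which are arginine codons in the nuclear code. MT-ND5 (plus strand, to base 14148) and MT-ND6 (minus strand, from base 14149) meet end to end.
MT-ND4: ttaccgggttttcctctT
MT-ND5: ctactcctaatcacaTAA
MT-CO1: gtatacataaaatctAGA
MT-ND6: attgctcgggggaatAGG

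FPKM values move in steps of 1 read, from which whole reads were recovered, and all 148 member values (37 genes in 4 libraries) lay within 0.01 of a whole read. Reads on genes totalled 19341863 and 19147597 for control and 12395415 and 12900245 after GNE-987. The total behind the deposited scaling was 1.19 and 1.16 times these reads in control but 0.674 and 0.684 times after GNE-987, so scaling to the reads themselves moved the median log2 fold change of all genes by -0.75. Of the 8 promyelocyte markers checked, ELANE and CTSG were listed at 0 in both control libraries, MPO, CEBPE, PRTN3 and CD33 were under 1 FPKM, and AZU1 (2.07 and 2.10 FPKM) and SPI1 (7.52 and 5.68 FPKM) were higher. The erythroid factor KLF1 was at 85.2 and 85.9 FPKM, and the cells are named here by their label only. With GNE-987, KLF1 was at 27.3 and 24.8 FPKM and the lymphocyte gene CD79A at 23.4 and 21.4 FPKM, from 0.0867 and 0 in control, and the part of such differences in the mitochondrial values was not tested.

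All 37 mitochondrial genes were higher with GNE-987, by between 2.45-fold (MT-TS2) and 12.4-fold (MT-TD) in mean FPKM, except that scaling to GAPDH put 8 of them below 0 and quantile normalization put 9 below 0 and MT-CO3 at 0. For each gene both GNE-987 libraries lay above both control libraries, which 47.5% of all 16668 tested genes did. In limma on log2(FPKM + 0.1) with Benjamini-Hochberg adjustment over every gene tested, 37 of 37 were called higher at adjusted p-values of 0.0150 or less, beside 41.5% of all tested genes called higher, 36.1% called lower and 77.6% called in either direction. The median log2 fold change was 2.56 over the 37 genes and 0.17 over all tested genes, and 32.5% of the tested genes had a log2 fold change at or above that of the lowest member. In the deposited scaling all 37 also rose more than 2-fold, as 33.2% of all tested genes did with that call, while 57.8% moved more than 2-fold in either direction. With an unadjusted p under 0.05 in its place, the count was again 37, beside 33.6% of all tested genes. The log2 fold changes ran from 1.30 to 3.72 in that scaling. They ran from 0.51 to 2.94 with scaling to total reads and from 0.69 to 3.12 with scaling to nuclear reads, so the lowest were then under 2-fold. The fold changes were higher than the median of all genes for all 37 members after scaling to GAPDH, to the total of reads or to reads on nuclear genes, and for 36 of 37 after quantile normalization, which makes the highest ranks equal in every library by construction. Without GNE-987 replicate 1 or replicate 2, 14 and 13 of the 37 genes were called, all higher; that fit has 1 GNE-987 library, which is assumed to vary like the control pair. Scaling to GAPDH, itself at 398 and 432 FPKM in control and 1501 and 1499 with GNE-987, left 22 called higher and 1 lower (MT-TH, -0.41), and quantile normalization left 20 higher and 1 lower (MT-ND5, -0.37).

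The members took 3.77% and 4.56% of gene reads in control and 15.6% and 15.2% with GNE-987. The share was thus 4.17% ± 0.561 (SD, n = 2) in control and 15.4% ± 0.283 (SD, n = 2) with GNE-987, a difference of 11.3 percentage points, larger than the spread in either group. With 2 libraries against 2, a two-sided exact permutation test cannot go below p = 0.333, which is the value it gave. Of protein-coding reads, the 13 mRNAs took 3.48% and 4.37% in control and 14.8% and 14.3% with GNE-987. In bulk RNA more mitochondrial RNA per cell, less nuclear RNA per cell and a changed mixture of cells cannot be told apart, and the values are relative within each library.

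**Figure D1:**
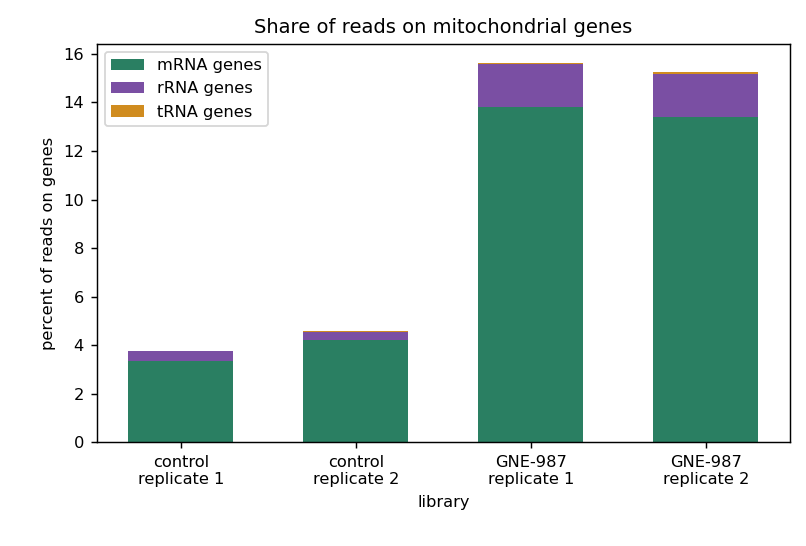
Percent of all reads on genes (vertical axis, from 0) that fell on mitochondrial mRNA, rRNA and tRNA genes, stacked, in each of the 4 libraries (horizontal axis). The stacks reach 3.77% and 4.56% in control and 15.6% and 15.2% with GNE-987, and the tRNA layer is too thin to see at this scale.

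By class, the mRNAs made up most of the mitochondrial reads in every library. These are shares of sequenced reads, and the share of each class in the RNA of the cells was not measured. They took 89.1% and 92.6% of member reads in control and 88.2% and 88.0% with GNE-987. The rRNAs took 10.3% and 6.82% in control and 11.3% and 11.5% with GNE-987, and the tRNA genes 0.608% and 0.545% in control and 0.481% and 0.499% with GNE-987. The GNE-987 libraries lay below both control libraries for the mRNAs and the tRNA genes and above both for the rRNAs, and in each class that gap was smaller than the difference between the control libraries.

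The control pair was the less even one for these genes. Across the 15 mRNA and rRNA genes the control libraries differed by a median of 0.36 on the log2 scale and the GNE-987 libraries by 0.06, and the control pair differed more for 13 of the 15. Control replicate 2 was above control replicate 1 for 12 of the 15, most for MT-ATP6 at 1.67 times, while MT-RNR1 was at 0.599 times. Over all tested genes the order was the other way, with a median difference of 0.12 between control libraries and 0.18 between GNE-987 libraries.

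The 2 rRNA genes did not move alike. MT-RNR1, the RNA of the small ribosomal subunit (chrM:648-1601), was at 561 and 336 FPKM in control and 1514 and 1487 with GNE-987. MT-RNR2, the RNA of the large subunit (chrM:1671-3229), was at 1743 and 1522 FPKM in control and 15898 and 15585 with GNE-987. Neither gene had overlapping groups, and the log2 fold change was 1.79 (SE 0.27, adjusted p = 0.00558) for MT-RNR1 and 3.27 (SE 0.09, adjusted p = 0.000149) for MT-RNR2. The ratio of MT-RNR2 to MT-RNR1 in FPKM was 3.11 and 4.53 in the control libraries and 10.5 in both GNE-987 libraries, so that it did not overlap between the groups. The difference between the fold changes of the pair was not itself tested beyond that ratio.

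Complex I, the NADH dehydrogenase that feeds electrons into the chain, has 7 of the 13 mRNAs, all called higher, with a median log2 fold change of 2.64. MT-ND1 was at 1798 and 1751 FPKM in control and 10981 and 10439 with GNE-987. MT-ND2 was at 2076 and 2661 FPKM in control and 17779 and 16658 with GNE-987. MT-ND3 was at 1734 and 1936 FPKM in control and 12118 and 10818 with GNE-987. These 3 had log2 fold changes of 2.59, 2.87 and 2.64, and their groups were far apart compared with either pair.

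The overlapping genes MT-ND4L and MT-ND4, which share 7 bases and are known to be carried on a common mRNA, had the highest mean FPKM of the complex I genes in each group. However, MT-ND2 was above MT-ND4L in GNE-987 replicate 1 (17779 FPKM) and in log2 fold change (2.87). MT-ND4L was at 2707 and 2827 FPKM in control and 17602 and 17646 with GNE-987. MT-ND4 was at 2845 and 3660 FPKM in control and 27144 and 25955 with GNE-987. The log2 fold change was 2.67 (SE 0.05) for MT-ND4L and 3.04 (SE 0.14) for MT-ND4, the highest of the mRNAs. Their ratio in FPKM, MT-ND4 over MT-ND4L, was 1.05 and 1.29 in control and 1.54 and 1.47 with GNE-987, with no overlap between groups.

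MT-ND5 and MT-ND6, which encode the remaining complex I subunits and lie on opposite strands, rose least among the mRNAs. MT-ND5 was at 1020 and 1109 FPKM in control and 3562 and 3478 with GNE-987, a log2 fold change of 1.73 (SE 0.06, adjusted p = 0.000205). MT-ND6 was at 373 and 496 FPKM in control and 1571 and 1493 with GNE-987, a log2 fold change of 1.83 (SE 0.16, adjusted p = 0.00114). The FPKM ratio of MT-ND4 to MT-ND5, which comes before it with 3 tRNA genes in between, was 2.79 and 3.30 in control and 7.62 and 7.46 with GNE-987. By contrast the ratio of MT-ND5 to MT-ND6 was 2.74 and 2.24 in control and 2.27 and 2.33 with GNE-987, and there the groups overlapped. The library kit does not mark strand, so reads from RNA of the opposite strand over either gene cannot be told apart from its own.

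Complex III has a single mitochondrial subunit, cytochrome b. Its gene MT-CYB was at 1762 and 1876 FPKM in control and 10987 and 10398 with GNE-987, a log2 fold change of 2.56 (SE 0.06, adjusted p = 0.00014). MT-CYB lies past MT-ND6 and MT-TE on the plus strand, and its ratio to MT-ND5 was 1.73 and 1.69 in control and 3.08 and 2.99 with GNE-987. The low rise of MT-ND5 was thus not continued in the next plus-strand mRNA.

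Complex IV, cytochrome c oxidase, had the highest levels per length in every library. MT-CO1 was at 4219 and 5678 FPKM in control and 29196 and 28279 with GNE-987. MT-CO2 was at 4055 and 5746 FPKM in control and 31287 and 30491 with GNE-987. MT-CO3 was at 5003 and 7096 FPKM in control and 33330 and 32167 with GNE-987, the highest FPKM of the members in each of the 4 libraries. The 3 log2 fold changes lay between 2.46 (MT-CO3) and 2.68 (MT-CO2), and MT-CO1 and MT-CO2 could not be ordered in control, where their means of 4949 ± 1032 and 4900 ± 1196 FPKM (SD, n = 2) differed by less than the spread.

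Complex V, the ATP synthase, has 2 mRNA genes that differed widely in level although they overlap. MT-ATP6 was at 2570 and 4285 FPKM in control and 23804 and 22164 with GNE-987, a log2 fold change of 2.79 (SE 0.27). MT-ATP8, which begins upstream of it on the same known mRNA, was at 45.7 and 63.1 FPKM in control and 372 and 355 with GNE-987, a log2 fold change of 2.75 (SE 0.17). MT-ATP6 was thus listed at 56.2 and 67.9 times the level of MT-ATP8 in control and 64.1 and 62.5 times with GNE-987, and these ratios overlapped between groups. How reads in the 46 shared bases printed above were assigned is not given in the sources used here, so the low level of MT-ATP8 is uncertain, and its fold change rests on 218 to 648 reads per library.

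**Figure D2:**
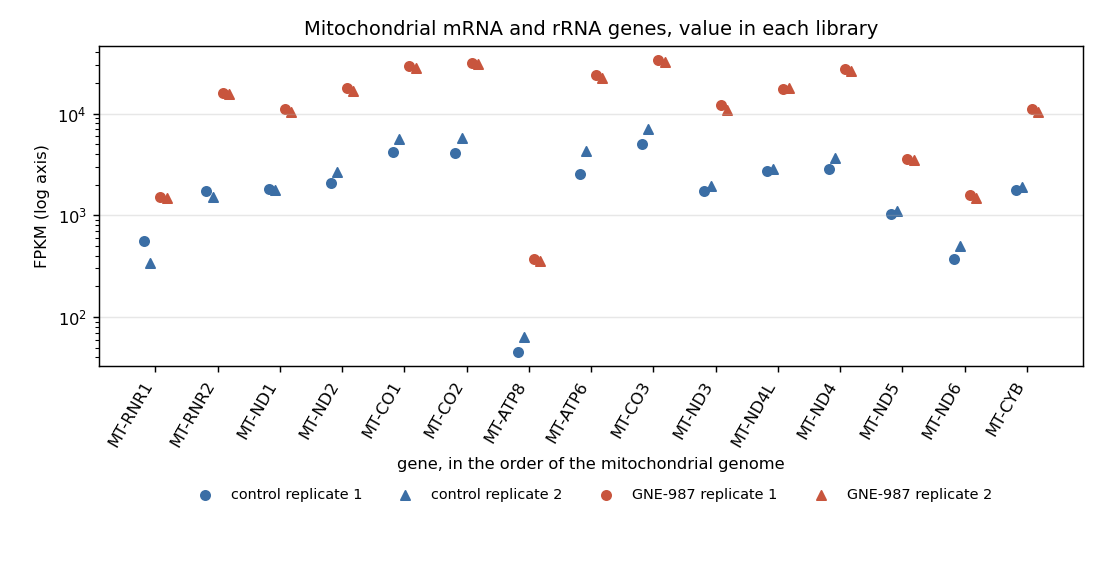
FPKM on a log axis of the 13 mRNA and 2 rRNA genes in the order of the mitochondrial genome (horizontal axis), with 1 symbol for each of the 4 libraries. In the deposited scaling both GNE-987 symbols lie above both control symbols for each of the 15 genes (with scaling to GAPDH, MT-RNR1, MT-ND5 and MT-ND6 fall below 0), the log2 fold change is lowest for MT-ND5 (1.73) and highest for MT-RNR2 (3.27), and MT-ATP8 stands far below the other mRNAs.

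The levels of several mRNAs could not be ordered in control. MT-ND1, MT-CYB and MT-ND3 were at 1774 ± 33.5, 1819 ± 80.7 and 1835 ± 143 FPKM (SD, n = 2), within each other's spread, and with GNE-987 all 3 were between 10398 and 12118 FPKM. By stop codon, the 7 mRNAs with a complete stop codon had a median log2 fold change of 2.67 and the 6 completed by the poly(A) tail 2.62. MT-ND6 is also apart in composition, with 35.6% G, where the other 12 mRNAs had 6.3% to 16.2% in their own strand.

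Mature tRNAs carry no poly(A) tail, and a read that falls on a tRNA gene can come from the tRNA or from a longer RNA that runs over it. The 22 tRNA genes had between 3 reads (MT-TA in control replicate 2, 95% exact Poisson interval 0.619 to 8.77 reads, for counting error only) and 3177 reads (MT-TN in GNE-987 replicate 2). All 22 were called higher, at a median log2 fold change of 2.34, from 1.30 for MT-TS2 to 3.72 for MT-TD. That span was wider than the 1.73 to 3.04 of the mRNAs, at far fewer reads per gene.

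Of the tRNA genes near the start of the genome, which flank the rRNAs, MT-TF (phenylalanine) was at 6.12 and 14.0 FPKM in control and 37.1 and 57.4 with GNE-987. MT-TV (valine), between the rRNAs, was at 49.7 and 37.3 FPKM in control and 113 and 204 with GNE-987. MT-TL1 (leucine), just past MT-RNR2, was at 235 and 159 FPKM in control and 1683 and 1585 with GNE-987. Their log2 fold changes of 2.30, 1.81 (SE 0.34) and 3.08 (SE 0.21) put MT-TV next to MT-RNR1 with 1.79 and MT-TL1 next to MT-RNR2 with 3.27. The FPKM ratio of MT-TV to MT-RNR1 was 0.0887 and 0.111 in control and 0.0744 and 0.137 with GNE-987, overlapping between groups.

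Between MT-ND1 and MT-ND2 lie 3 tRNA genes. MT-TI (isoleucine) was at 49.7 and 35.4 FPKM in control and 175 and 207 with GNE-987. MT-TQ (glutamine, minus strand) was at 16.9 and 10.0 FPKM in control and 113 in both GNE-987 libraries. MT-TM was at 75.4 and 55.8 FPKM in control and 697 and 721 with GNE-987. The log2 fold changes were 2.18, 3.11 and 3.45 in this order, and MT-TM had the highest read counts of the 3, 84 to 433 per library.

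The cluster between MT-ND2 and MT-CO1 holds MT-TW (tryptophan) on the plus strand and 4 genes on the minus strand. MT-TN (asparagine) was at 820 and 972 FPKM in control and 4399 and 4931 with GNE-987. MT-TC (cysteine) was at 670 and 821 FPKM in control and 4612 and 4268 with GNE-987. MT-TY (tyrosine) was at 182 and 249 FPKM in control and 1406 and 1288 with GNE-987. MT-TN and MT-TC on the sides of the replication start thus had the highest FPKM of the tRNA genes in all 4 libraries. MT-TW, with 7 to 16 reads per library, was at 4.47 and 7.98 FPKM in control and 22.9 and 26.7 with GNE-987. MT-TA (alanine), with 3 to 22 reads, was at 5.04 and 1.97 FPKM in control and 38.1 and 34.5 with GNE-987.

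Around MT-CO2 were 3 tRNA genes with few reads. MT-TS1 (serine, minus strand) was at 3.15 and 6.55 FPKM in control and 26 and 32.8 with GNE-987. MT-TD was at 10.2 and 4.65 FPKM in control, on 16 and 7 reads, and 86.2 and 98.3 with GNE-987, on 49 and 59 reads. MT-TK (lysine) was at 6.83 and 8.40 FPKM in control and 39.3 and 27.5 with GNE-987. MT-TD had the highest log2 fold change of the 37 genes, 3.72 (SE 0.41), which rests on these low control counts.

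The 5 tRNA genes between MT-CO3 and MT-ND5, grouped after their values were seen, had a median log2 fold change of 1.59, against 2.34 for all 22 tRNA genes. MT-TH was at 160 and 206 FPKM in control and 489 and 498 with GNE-987, a log2 fold change of 1.44 (SE 0.14, adjusted p = 0.00154). MT-TG was at 112 and 131 FPKM in control and 438 and 305 with GNE-987. MT-TR was at 60.8 and 68.9 FPKM in control and 175 and 221 with GNE-987. The log2 fold changes were 1.59 (SE 0.21) for MT-TG and 1.60 (SE 0.14) for MT-TR, against 2.46 for MT-CO3 upstream of MT-TG and 2.64 for MT-ND3 between them. MT-TS2 was at 29.4 and 21.5 FPKM in control and 68.9 and 55.7 with GNE-987, a log2 fold change of 1.30. MT-TL2 was at 22 and 31.8 FPKM in control and 136 and 81.4 with GNE-987, a log2 fold change of 1.99. The ratio of MT-TH to its upstream neighbour MT-ND4 was 0.0562 and 0.0564 in control and 0.0180 and 0.0192 with GNE-987, and that of MT-TR to MT-ND3 was 0.0351 and 0.0356 in control and 0.0144 and 0.0205 with GNE-987, both without overlap.

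The last tRNA genes surround MT-CYB. MT-TE (glutamate, minus strand) was at 12.6 and 14.4 FPKM in control and 83.2 and 78.8 with GNE-987. MT-TT (threonine) was at 12.5 and 7.53 FPKM in control and 58.0 and 49.8 with GNE-987. MT-TP (proline, minus strand) was at 227 and 244 FPKM in control and 1171 and 1073 with GNE-987. Their log2 fold changes were 2.58, 2.46 and 2.25, near the median of the class, and MT-TP had many more reads than the other 2, 356 to 666 per library.

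**Figure D3:**
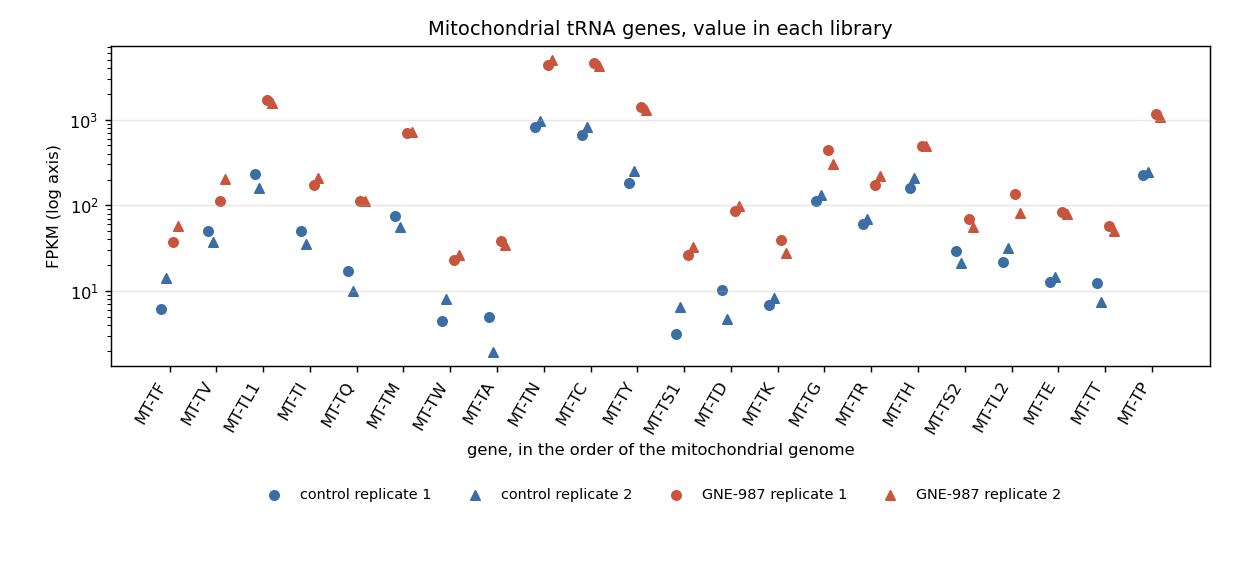
FPKM on a log axis of the 22 tRNA genes in the order of the mitochondrial genome (horizontal axis), with 1 symbol for each of the 4 libraries. In the deposited scaling both GNE-987 symbols lie above both control symbols for every gene (with scaling to GAPDH, MT-TV, MT-TG, MT-TR, MT-TH and MT-TS2 fall below 0), MT-TN and MT-TC are the highest, and the gap is narrow for MT-TG, MT-TR, MT-TH and MT-TS2.

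By strand, 28 genes lie on the plus strand and 9 on the minus strand, MT-ND6 and 8 tRNA genes. Strand here is that of the annotated gene. The library kit does not mark strand, so RNA of the opposite strand over a gene counts toward it. Median log2 fold changes were 2.51 on the plus strand and 2.58 on the minus strand. Reads on minus-strand genes were 1.04% and 1.07% of member reads in control and 0.708% and 0.719% with GNE-987. Among tRNA genes alone, the 14 on the plus strand had a median of 2.07 and the 8 on the minus strand 2.62, from 2.25 (MT-TP) to 3.48 (MT-TA), and the difference between these medians was not tested.

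Because the scaling of the libraries sets the size of every fold change, the members were also compared with each other. The library's median log2 value of the 13 mRNAs was subtracted from all genes before the fit, so that the scaling drops out up to the pseudocount, and this median rose by 2.86 with GNE-987. That rise exceeded the median log2 fold change of the 13 mRNAs, 2.64, so the mRNAs themselves had a median shift of -0.22. The reference thus favours calls of lower over calls of higher. Of the 37 genes, 14 were called lower and 2 higher relative to the mRNAs in limma with Benjamini-Hochberg adjustment over all genes, beside 74.6% of all tested genes called lower, 10.1% called higher and 84.6% called in either direction on this scale. The 14 were MT-RNR1, MT-ND5, MT-ND6 and 11 tRNA genes, and the 2 were MT-TM (0.58) and MT-TD (0.85). With a pseudocount of 0.01, or with no filter on low values, MT-TM, MT-TD, MT-TI and MT-TN were not called, nor was MT-TP with no filter. Without either GNE-987 library 4 genes were called, all lower, and without control replicate 1 or 2 the counts were 23 and 22.

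Relative to the mRNAs, MT-TH fell by 1.42 (SE 0.21, adjusted p = 1.1e-05) and MT-TS2 by 1.57 (adjusted p = 5.65e-05), the lowest values of the 37 genes. MT-TG was at -1.28, MT-TR at -1.26 and MT-TL2 at -0.88, so that all 5 tRNA genes between MT-CO3 and MT-ND5 were called lower. These 5 were grouped after their fold changes were seen. The shift rests on the same values, so their calls are no separate evidence for the group. The mRNAs among them, MT-ND3, MT-ND4L and MT-ND4, which belong to the reference itself, were at -0.22, -0.19 and 0.17 and not called. MT-ND5 was at -1.14 (adjusted p = 0.000126) and MT-ND6 at -1.03 (adjusted p = 0.00025), and none of the other 11 mRNAs was called, with values from -0.41 (MT-CO3) to 0.17. MT-RNR1 was at -1.08 and MT-TV at -1.05, while MT-RNR2 was at 0.41 (adjusted p = 0.116) and not called. The further tRNA genes called lower were MT-TW at -0.84, MT-TK at -0.76, MT-TI at -0.69, MT-TP at -0.61 and MT-TN at -0.48 (adjusted p = 0.047). In all, 9 of the 14 plus-strand and 2 of the 8 minus-strand tRNA genes were lower than the mRNAs, and a difference between the strands was not tested. These are strands of the annotated genes, since the library kit does not mark the strand of the RNA.

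**Figure D4:**
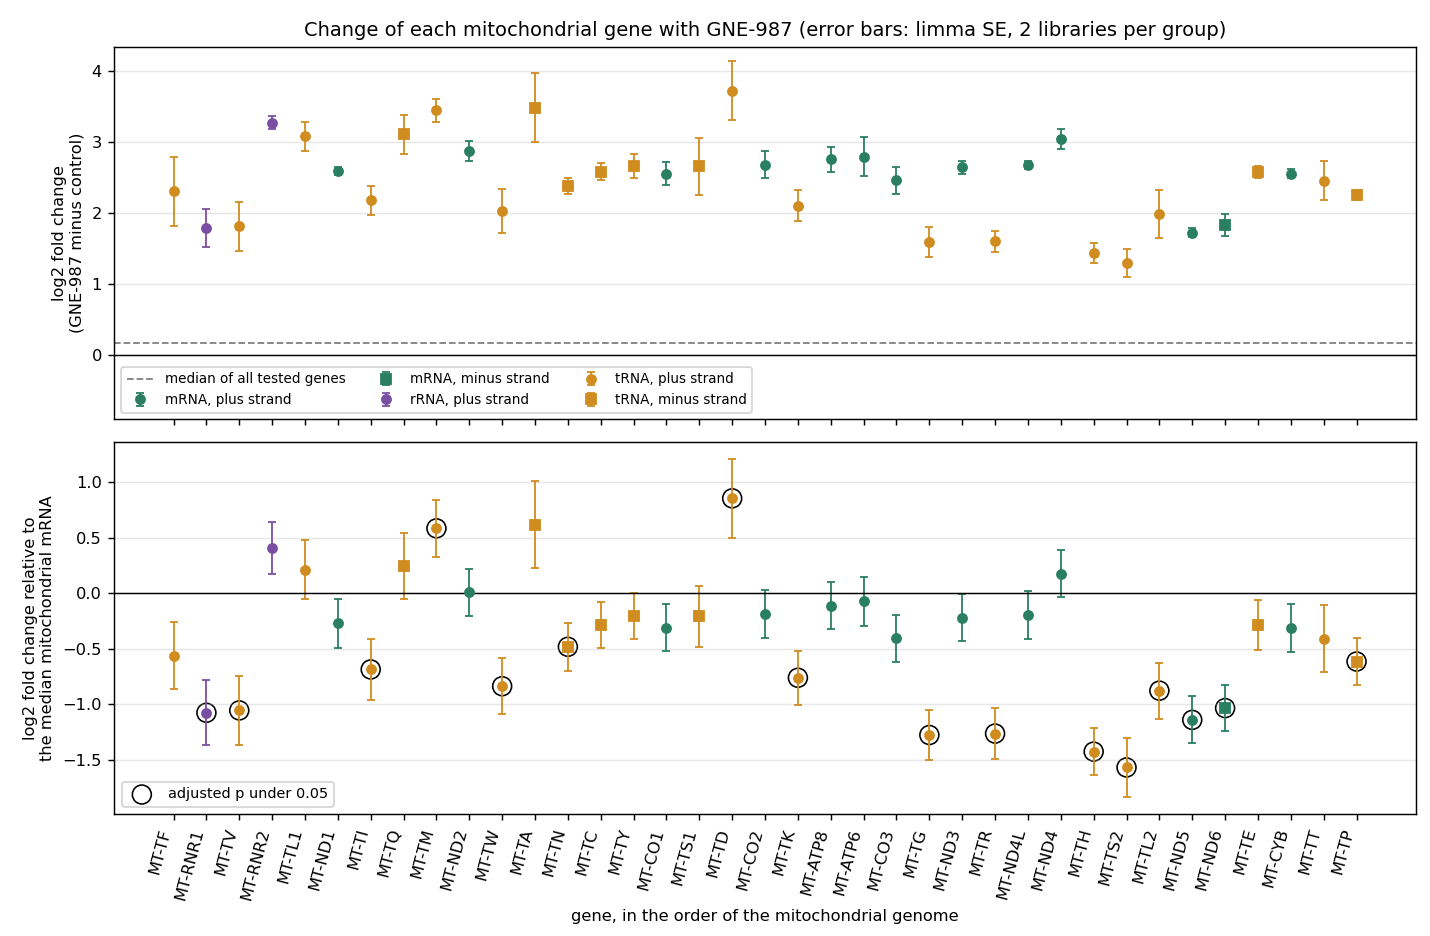
Log2 fold change with GNE-987 over control (upper panel) and the same relative to the median mitochondrial mRNA of each library (lower panel) for the 37 genes in genome order, with limma standard errors as bars, colours for the classes and squares for the minus strand. In the deposited scaling all values in the upper panel lie above 0 and the dashed median of all genes at 0.17. By contrast, 8 fall below 0 with scaling to GAPDH and 9 by quantile normalization. Circles in the lower panel mark the 16 genes with an adjusted p-value under 0.05. They include the 5 tRNA genes between MT-CO3 and MT-ND5, which were grouped after their values were seen.

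The nuclear genes that make, cut, modify and degrade mitochondrial RNA, with some for replication of its DNA, were examined as a list of 83. Of the list, 82 passed the filter. PPARGC1A, listed at 0 in 3 libraries, did not, and TFB1M stands under both transcription and rRNA modification. Of these 10 were called higher, 59 lower and 13 not called, beside 41.5% of all tested genes higher and 36.1% lower. The median log2 fold change was -1.20, against 0.17 for all tested genes. Higher against lower calls went to 1 and 81 with scaling to GAPDH, and to 3 and 74 with scaling to total reads.

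In the list for transcription of the mitochondrial genome, which also holds genes of its replication and maintenance, 4 of 18 genes were higher and 11 lower. The 4 were POLG2, TWNK, MGME1 and RNASEH1, and no gene of the transcription machinery itself was called higher. The RNA polymerase gene POLRMT was at 31.0 and 33.8 FPKM in control and 11.8 and 10.7 with GNE-987, a log2 fold change of -1.52 (SE 0.08, adjusted p = 0.000391). Its initiation partner TFB2M was at 38.3 and 42.3 FPKM in control and 13 and 13.2 with GNE-987 (-1.61). TFAM, which packages the DNA and opens promoters, was at 20.6 and 22.9 FPKM in control and 22.3 and 22.8 with GNE-987 and was not called (0.05, adjusted p = 0.534), but it was called lower after scaling to GAPDH (-1.79), to total reads (-0.73) and to nuclear reads (-0.55) and with limma-voom (-0.73). The elongation factor gene TEFM (-0.42, adjusted p = 0.0472) and the termination factor gene MTERF1 (-2.35, adjusted p = 0.00155) were lower, but TEFM was not called with a pseudocount of 0.01 or with no filter. Of the replication genes, POLG (0.15) and the single-strand binding protein gene SSBP1 (-0.13) were not called, though both were called lower after scaling to GAPDH, total reads or nuclear reads and with limma-voom (POLG at -1.69, -0.63, -0.45 and -0.63). By contrast, the accessory polymerase subunit gene POLG2 was at 9.54 and 10.1 FPKM in control and 62.9 and 66.9 with GNE-987 (2.71). The helicase gene TWNK was called higher (0.46), and lower than 0 after scaling to GAPDH (-1.38), to total reads (-0.32) and to nuclear reads (-0.14). The nuclease genes MGME1 (0.55) and RNASEH1 (0.51), named after their values were seen, were also called higher and fell below 0 under each of these scalings.

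For stability and decay of mitochondrial RNA, 1 of 22 genes was higher and 18 lower. LRPPRC, which binds and protects the mRNAs, was at 39.5 and 40.1 FPKM in control and 71.3 and 70.4 with GNE-987 (0.83, adjusted p = 0.000313), but it was at -1.02 after scaling to GAPDH and was not called after scaling to total reads or with limma-voom. Its partner SLIRP was at 20.5 and 19 FPKM in control and 21.3 and 19.1 with GNE-987, with overlapping groups (0.03), and was called lower after scaling to GAPDH (-1.82), to total reads (-0.76) and to nuclear reads (-0.58) and with limma-voom (-0.76). The poly(A) polymerase gene MTPAP was at 4.33 and 4.26 FPKM in control and 0.357 and 0.622 with GNE-987 (-2.94, adjusted p = 0.00138). The degradosome genes PNPT1 (-1.28) and SUPV3L1 (-0.77), the RNA granule gene GRSF1 (-1.79), and FASTKD2 (-2.54), FASTKD5 (-1.06) and TBRG4 (-1.36) of the FASTK family of mitochondrial RNA-binding proteins, were all lower.

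For tRNA processing and modification, 3 of 24 genes were higher and 15 lower. TRMT10C, a subunit of the RNase P that cuts before tRNAs, was at 23.0 and 20.8 FPKM in control and 9.06 and 10.3 with GNE-987 (-1.17, adjusted p = 0.00108). HSD17B10, another subunit of it, was at 91.8 and 88.4 FPKM in control and 234 and 231 with GNE-987 (1.37, adjusted p = 0.000171), and at -0.49 after scaling to GAPDH. ELAC2, which cuts behind tRNAs, was at 20.5 and 20.2 FPKM in control and 11.3 and 11.7 with GNE-987 (-0.82). TRMT10C and HSD17B10, subunits of the same enzyme, thus lay on opposite sides in the deposited scaling. PRORP, its remaining subunit, named after its values were seen, was at 0.690 and 0.693 FPKM in control. With GNE-987, PRORP was at 1.35 and 0.779 FPKM and was not called (0.51, adjusted p = 0.206). The other genes called higher were QTRT1 (0.49) and GATC (0.42), named after their values were seen, and both fell below 0 with scaling to GAPDH, total reads or nuclear reads.

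For modification of the rRNAs, 11 of 12 genes were lower, and the last of them, NGRN (-0.43, adjusted p = 0.0728), was not called. The largest falls were those of RPUSD4, at 14.3 and 14.1 FPKM in control and 1.87 and 2.64 with GNE-987 (-2.62), and MRM3, at 13 and 12.5 FPKM in control and 2.72 and 1.65 with GNE-987 (-2.53). Of 7 tested regulators that act on nuclear genes for mitochondrial proteins, 2 were higher and 5 lower. The coactivator gene PPRC1 was at 18.1 and 18.6 FPKM in control and 1.86 and 2.12 with GNE-987 (-3.14, adjusted p = 0.000169). NRF1 was at 5.30 and 5.46 FPKM in control and 14.8 and 13.2 with GNE-987 (1.36), and at -0.47 after scaling to GAPDH. YY1 was called higher (0.69), but not after scaling to total reads (-0.10) or to nuclear reads (0.08).

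**Figure D5:**
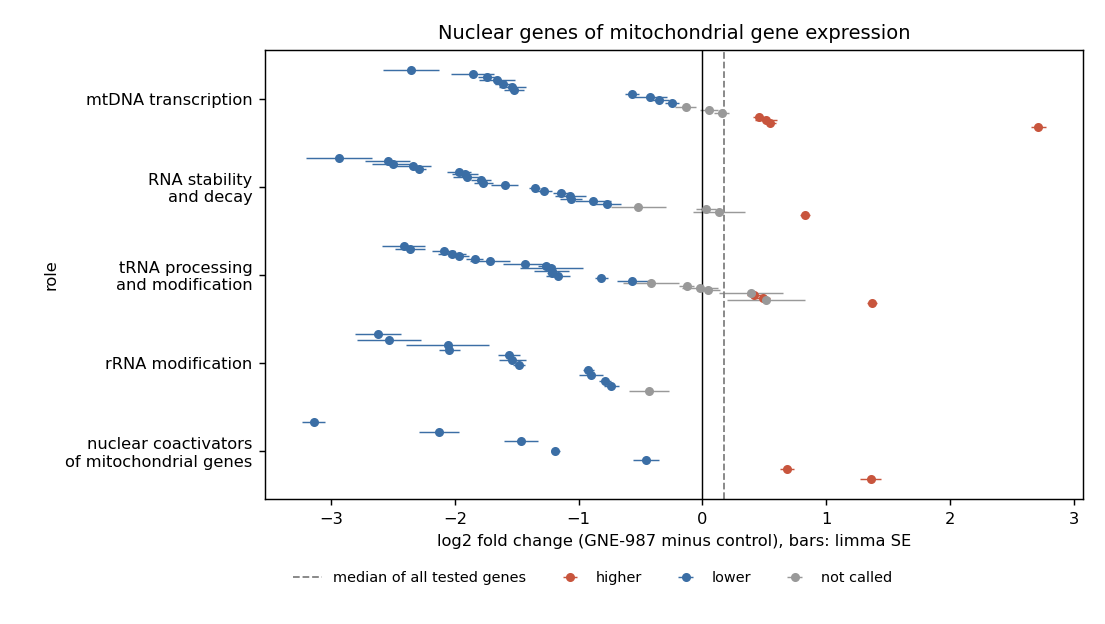
Log2 fold change with GNE-987 over control (horizontal axis, bars are limma standard errors) for the 82 tested nuclear genes of mitochondrial gene expression, by role (vertical axis) and coloured by call. In the deposited scaling most points lie left of the dashed median of all tested genes at 0.17, and POLG2 at 2.71 is farthest to the right. POLG2 stands under the transcription role, which also holds replication and maintenance genes.

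Reads of the members can be shared with copies of mitochondrial DNA in the nuclear genome. Of 404 annotated copies, 94 were above 0 in any library and 15 were tested, of which 12 were called higher, beside 41.5% of all tested genes called higher and 77.6% called in either direction. Several of the 12 passed the filter only through their GNE-987 values. Among them, named after their values were seen, MTND4P20 and MTND1P8 were at 0 in both control libraries and MTND5P42 at 0.0872 and 0 FPKM. For such copies the filter fixed the direction, so the count of 12 is not a result about the copies. MTND3P25 was called lower, at 1.29 and 1.00 FPKM in control and listed at 0 with GNE-987, and MTCO2P30 and MTCO2P27 were not called, these 3 being named after their values were seen. All copies together held reads equal to 1.11% to 1.27% of the member reads per library. The highest were 3 genes that lie close together on chromosome 1. MTATP6P1 (chr1:633696-634376) is 98.5% identical to MT-ATP6 and held 10.6% and 9.13% as many reads as MT-ATP6 in control and 8.18% and 8.25% with GNE-987. MTND2P28 (chr1:629640-630683) is 98.4% identical to MT-ND2 and held 6.78% and 7.35% as many reads in control and 7.45% and 8.08% with GNE-987. MTCO1P12 (chr1:631074-632616) is 98.7% identical to MT-CO1 and held 0.206% to 0.342% as many. Their log2 fold changes were 2.53, 3.01 and 2.97, beside 2.79, 2.87 and 2.55 for the mitochondrial genes they resemble, and whether reads were exchanged between them was not tested. With scaling to GAPDH 8 copies were called, and without either GNE-987 library 8.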

How the data were processed

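RNA was taken with Trizol and libraries were made with the Illumina TruSeq RNA Sample Prep Kit. The authors mapped filtered reads with HISAT2 2.0.5 on hg38, per the labels and the submitters' processing notes, and deposited an FPKM value for each gene and library. The program that counted reads, its annotation and its treatment of reads over overlapping or repeated genes are not given in the sources used here. The study's own test works on counts. Since the deposited unit is FPKM, values were tested here as log2(FPKM + 0.1) with limma 3.58.1 in R 4.3.3 (empirical Bayes with an intensity trend, Benjamini-Hochberg adjustment over all tested genes, threshold 0.05, no replicate block) over 16668 genes whose mean in the 4 libraries reached 0.5 FPKM. On this scale the changes of low genes are understated. The groups come from the labels, the dose and the time from the study's text.

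Of the identifiers, 58207 (99.1%) are in GENCODE release 44, which gave names, positions and lengths. Whole reads were recovered from the FPKM steps. At GENCODE lengths 53.0% of the 32895 genes above 0 came out whole within 0.01 in every library, and the other genes at another whole length, so library totals are estimates. Percent of reads and ratios between genes were computed per library, and shares were compared with an exact permutation test (scipy 1.17.1). Sequences were read from hg38 and compared with Biopython 1.88 in Python 3.11.15. The fit was tried on simulated data in which few genes changed. It recovered 9 of 79 changes of 1 and 79 of 105 changes of 2 on the log2 scale, and called 11 of 15920 unchanged genes. A gene that was not called may therefore still have changed.

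All mRNAs, rRNAs and tRNA genes are named. Of the nuclear genes, 20 regulators listed by name are given and, of the rest, the 3 largest rises and falls among called genes whose mean reached 5 FPKM and whose groups do not overlap, and of the nuclear copies the 3 with the highest means. The members and lists were chosen with earlier results of these data known. The alternatives were scaling to GAPDH, to total reads and by quantiles, other pseudocounts and filters, the replicate number as a block, limma-voom on recovered reads, another call rule and each library left out. Scaling to nuclear reads and the alternatives for nuclear copies were added after the data were seen.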

Additional observations from a re-analysis of the deposited data

How the results depend on the processing

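Of the 37 members, all stayed higher and called with pseudocounts of 1 and 0.01, with no filter, with a mean of at least 1 FPKM, with scaling to nuclear reads, and with the replicate block. Libraries with the same number did not deviate together (correlation 0.0054 over the tested genes). That value cannot show whether they were prepared as pairs, which the labels do not say. With the block 12 genes in place of 16 were called relative to the mRNAs and 67 in place of 69 of the nuclear genes. Limma-voom on recovered reads called 36 members and scaling to total reads 35. The median log2 fold change of the mRNAs, 2.64, became 0.79 with scaling to GAPDH, 1.86 with scaling to total reads and with limma-voom, 2.04 with scaling to nuclear reads and -0.035 by quantiles, where the median of all tested genes was -1.61, -0.58, -0.58, -0.40 and -0.24. The 37 called members became 23 with scaling to GAPDH and 21 by quantiles, and 13 to 36 with a library left out. The 16 genes called relative to the mRNAs became 4 to 23 with a library left out, with MT-TL1 between -0.25 and 0.67 and MT-TQ between -0.31 and 0.79, both below 0 without control replicate 2. The difference in read share of 11.3 points was 12.2 with protein-coding reads as the denominator. The 13 called nuclear copies became 28 with no filter, 8 with a mean of at least 1 FPKM, where fewer or more of them were tested by construction, 8 with scaling to GAPDH, and 8 to 12 with a library left out.

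Members that changed sign with scaling to GAPDH were MT-RNR1 (-0.065), MT-TV (-0.041), MT-TG (-0.26), MT-TR (-0.25), MT-TH (-0.41), MT-TS2 (-0.55), MT-ND5 (-0.13) and MT-ND6 (-0.023). By quantiles they were MT-RNR1 (-0.066), MT-ND1 (-0.15), MT-CO1 (-0.035), MT-ND3 (-0.077), MT-ND4L (-0.21), MT-TH (-0.23), MT-ND5 (-0.37), MT-ND6 (-0.12), MT-CYB (-0.044) and MT-CO3, which went to 0. Nuclear genes that changed sign with scaling to GAPDH were TFAM (-1.79), TWNK (-1.38), POLG (-1.69), LRPPRC (-1.02), SLIRP (-1.82), HSD17B10 (-0.49), NRF1 (-0.47), YY1 (-1.16), MGME1 (-1.30), RNASEH1 (-1.33), QTRT1 (-1.36) and GATC (-1.42). With scaling to total reads, to nuclear reads and with limma-voom they were TFAM (-0.73, -0.55 and -0.73), TWNK (-0.32, -0.14 and -0.32), POLG (-0.63, -0.45 and -0.63), SLIRP (-0.76, -0.58 and -0.76), MGME1 (-0.23, -0.055 and -0.23), RNASEH1 (-0.27, -0.091 and -0.27), QTRT1 (-0.30, -0.12 and -0.30) and GATC (-0.36, -0.18 and -0.36), and YY1 with scaling to total reads and with limma-voom (-0.10 in both). The cause of these changes beyond the scaling itself was not tested. Depth limits the tRNA genes most: MT-TA, MT-TS1, MT-TD and MT-TW had under 10 reads in at least 1 control library.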
